A study of Mus musculus with 8 samples.

Results

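The 36 genes described here encode enzymes that place methyl groups on DNA, on histone lysines or on protein arginines, together with Uhrf1, which recruits the maintenance DNA methyltransferase. They were chosen by name from the 35072 genes of the count table, and all 36 were found there. RNA was sequenced from wildtype mouse CD8 T cells, the cytotoxic branch of the T cell compartment, taken as naive cells from spleen and lymph nodes. Antibodies to CD3 and CD28, with interleukin-12 present, activated all of the cells for 18 h. They then received the vehicle PBS (4 libraries) or 2 mM formate (4 libraries) for 24 h, so activation and interleukin-12 are common to both groups. The labels give no age or sex. They also leave it unsaid whether each library is from its own animal or culture, so the p-values here rest on the spread of these libraries, which could be technical.

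Methyltransferases of this kind take their methyl group from S-adenosylmethionine (SAM) and release S-adenosylhomocysteine. Formate enters the folate cycle, which can supply the methyl group that turns homocysteine back into methionine, the precursor of SAM. In T cells these enzymes set and copy the chromatin marks that accompany division and differentiation: DNA methylation and the repressive marks on lysines 9 and 27 of histone H3 (H3K9, H3K27), the mark of active promoters and enhancers on lysine 4 (H3K4), and the transcription-coupled marks on lysines 36 and 79 (H3K36, H3K79). The comparison asks whether transcripts of the enzymes differed between cells with and without formate; enzyme activity and the marks themselves were not measured here.

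Library totals lay between 29361986 and 41393093 estimated counts, and the lowest count of any of the 36 genes in any library was 199. The 7 CD8 T cell identity genes measured, Cd8a and Cd3e among them, were present in all libraries and summed to 1928 to 2561 CPM (counts scaled to library size) with PBS and 1983 to 2346 with formate. The 15 myeloid genes summed to 64.2 to 141 CPM with PBS and 66.8 to 125 with formate, mostly Cd74 and H2-Ab1. With PBS, Cd74 had 34.3 to 52.1 CPM and H2-Ab1 6.43 to 75.5, while Csf1r was at 0.189 CPM or less in all libraries. The 10 B cell genes summed to 174 to 185 CPM with PBS and 164 to 178 with formate, mostly Ighm, with Pax5 at 1.21 to 2.56 CPM with PBS. The 6 CD4 T cell genes summed to 62.3 to 371 and 61.1 to 423 CPM, mostly Ctla4. The 9 natural killer genes summed to 48.8 to 94.7 and 40.6 to 85.0 CPM, mostly Eomes. For the 9 stromal genes the sums were 17.6 to 24.4 and 17.6 to 23.2 CPM, mostly Pecam1. The 8 erythroid and platelet genes summed to 0.784 to 1.11 and 1.06 to 1.96 CPM, with Hba-a1 and Pf4 at 0 throughout. The share of mitochondrially encoded counts was 0.414% to 0.566% with PBS and 0.560% to 0.906% with formate. The library titles carry numeric codes, and libraries with codes 1 to 8 stood apart from those with codes 10 to 14; each set holds 2 PBS and 2 formate libraries.

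Per kilobase of transcript, which allows levels of different genes to be set side by side, the 36 genes spanned a wide range in PBS-treated cells. Prmt1, the main enzyme of asymmetric arginine dimethylation, had the highest mean level at 166 ± 28.9 CPM per kb (SD, n = 4), followed by Uhrf1 at 143 ± 19.5 and by Ezh2, the catalytic subunit of Polycomb repressive complex 2, at 114 ± 10.3. Prmt5, which makes symmetric dimethylarginine, reached 90.7 ± 15.1 CPM per kb, and Dnmt1, which copies DNA methylation after replication, 87.1 ± 11.2. The ranges over the PBS libraries overlapped between Prmt1 and Uhrf1, between Uhrf1 and Ezh2 and between Prmt5 and Dnmt1, though Prmt1 was above Uhrf1 and Uhrf1 above Ezh2 within each PBS library; the ranges of Ezh2 and Prmt5 lay narrowly apart. Those of Dnmt1 and Smyd5 and of Ehmt1 and Setdb2 were also apart, while all other neighbours in the order overlapped. At the low end stood Ash1l at 2.85 ± 0.509, Kmt2c at 2.79 ± 0.486 and Smyd3 at 2.73 ± 0.464 CPM per kb, which also overlapped. A single transcript model per gene gives the length, so these levels carry that uncertainty, and reads shared by paralogs were divided between them by the estimate.

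**Figure D1:**
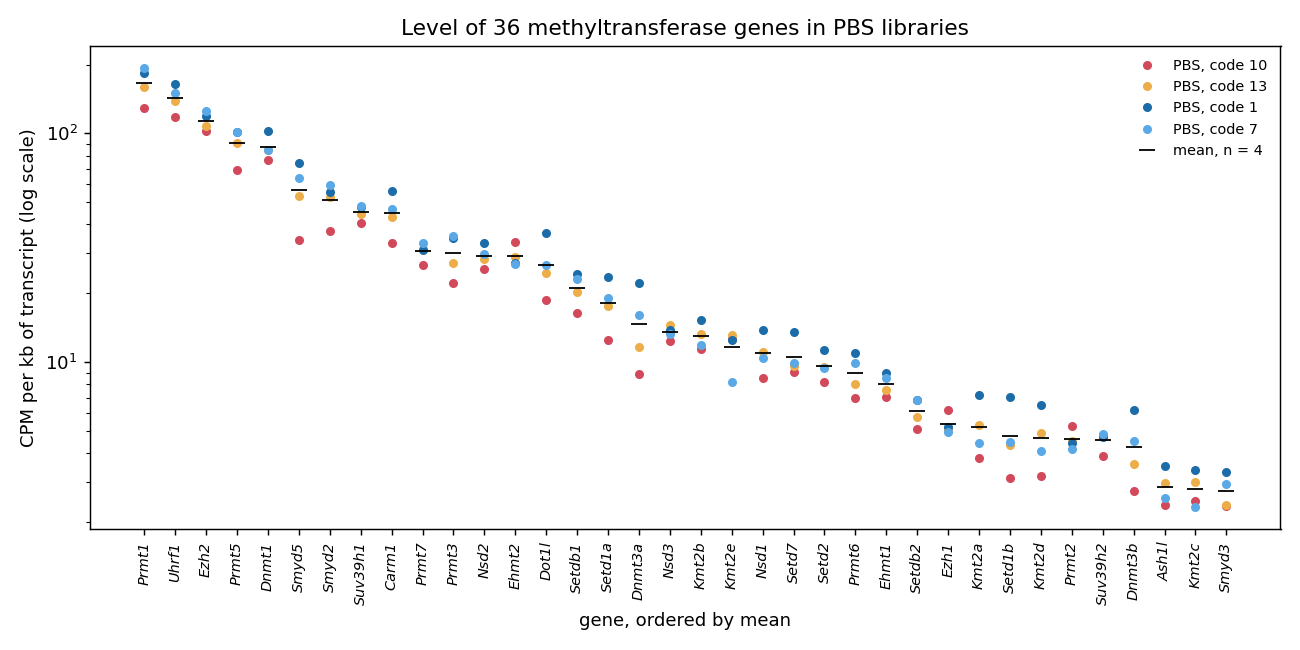
Level of each of the 36 genes in the 4 PBS libraries, in CPM per kb of transcript on a log axis; each point is a library, coloured by its title code, and the bar is the mean. Prmt1, Uhrf1 and Ezh2 have the highest means (166, 143 and 114) and Smyd3 the lowest (2.73). The library of code 10 is the lowest for many genes but the highest for Ehmt2, Ezh1 and Prmt2.

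Related enzymes differed in level in the same direction in all 8 libraries, PBS and formate together. Per kilobase, Dnmt1 stood 4.55 to 8.58 times above Dnmt3a, a de novo DNA methyltransferase, and Dnmt3a stood 3.23 to 4.22 times above its relative Dnmt3b. Ezh2 was 14.6 to 25.2 times as high as Ezh1, the form associated with resting cells. Suv39h1 exceeded Suv39h2, both of which trimethylate H3K9 in heterochromatin, 8.0 to 10.4 times, and Ehmt2 (G9a) exceeded its partner Ehmt1 (GLP) 2.64 to 4.76 times. Setdb1 exceeded Setdb2 2.90 to 3.56 times. Prmt1 stood 24.4 to 57.3 times above Prmt2, a related arginine methyltransferase of low activity.

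Without pairing of libraries, no methyltransferase gene differed between formate and PBS. By edgeR's quasi-likelihood test with Benjamini-Hochberg adjustment, 0 of the 36 genes passed an adjusted p of 0.05 (0.00752% of all 13299 genes tested passed), and the smallest adjusted p among them was 0.998. At an unadjusted p under 0.05, 0 of the 36 passed as well, against 634 of all genes; the smallest unadjusted p was 0.0679, for Ehmt2. DESeq2 without pairing also called 0 of the 36. The spread between libraries of a group was large for many of these genes, as the values below show.

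When libraries with neighbouring title codes (1 and 2, 7 and 8, 10 and 11, 13 and 14), each holding 1 PBS and 1 formate library, were taken as pairs, 7 of the 36 transcripts fell in the formate libraries, 0 rose, and 29 missed the threshold. The 7 are Dnmt3b, Uhrf1, Ezh2, Ehmt2, Nsd2, Carm1 and Prmt5, with fitted decreases of 9.37% to 15.5% over the pairs. Each was lower with formate in 4 of 4 pairs, and single pairs ranged in log2 change from -0.03 (Ezh2, codes 1 and 2) to -0.39 (Carm1, codes 13 and 14). The 7 make up 19.4% of the 36 genes. In the same edgeR fit with the pairs as a block, 7.52% of all genes tested fell and 5.35% rose. The median log2 change of the 36 genes was -0.03, beside -0.0031 for all genes tested. At an unadjusted p under 0.05, 11 of the 36 were lower and 5 higher, 16 in all, beside 3761 of the 13299 genes tested in either direction. No label states that neighbouring codes belong together, and fewer cells of a type and less RNA per cell cannot be told apart in these bulk libraries. Each of the 7 calls was lost on leaving out at least 2 of the 4 pairs in turn, and with offsets for GC content the calls of Dnmt3b, Ehmt2 and Carm1 were lost (edgeR adjusted p of 0.0528, 0.0980 and 0.0554), which leaves 4 of the 36 genes beside 7.28% of all genes. Over all genes 711 rose and 1000 fell with the TMM scaling used here, but 1048 rose and 539 fell with library size only, where Prmt5 alone of the 7 passed, and 832 rose and 736 fell with upper quartile scaling, where 4 of the 7 passed; all 7 stayed below 0 under each scaling.

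Lists of cell cycle genes were read in the same paired fit, in which 7.52% of all genes tested fell and 5.35% rose. Of 21 G1/S genes, 9 fell and 1 rose in the paired fit, with a median log2 change of -0.12 and a summed level of 6052 to 6877 CPM with PBS and 5459 to 6435 with formate. Of 20 G2/M genes, 9 fell and 0 rose, with a median of -0.14 and a summed level of 4381 to 4691 CPM with PBS and 3859 to 4483 with formate. Their part in the changes of the methyltransferase genes was not tested.

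**Figure D2:**
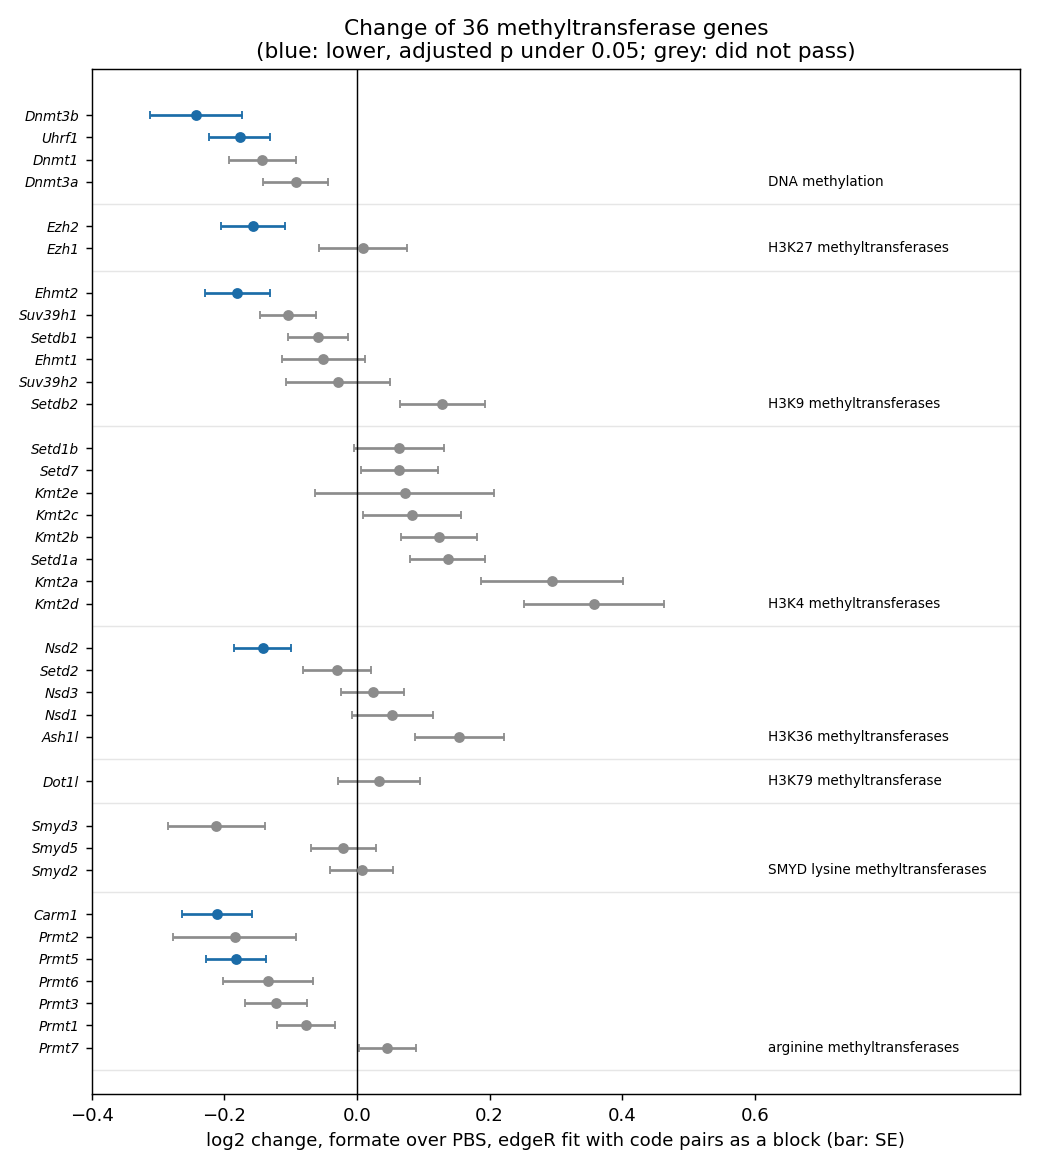
Log2 change with formate of the 36 genes in the edgeR fit with title-code pairs as a block, ordered within role groups; bars are standard errors, blue marks genes that passed an adjusted p of 0.05 and grey those that did not. The 7 blue genes lie between -0.24 (Dnmt3b) and -0.14 (Nsd2), and the 8 H3K4 enzymes lie above 0 but none passed.

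Of the 4 genes of DNA methylation, 2 fell with formate (Dnmt3b and Uhrf1), 0 rose, and the group's median log2 change was -0.16. Dnmt3b (ENSMUSG00000027478, chr2:153649450-153687730, GRCm38) encodes a de novo DNA methyltransferase. Its PBS libraries of codes 1, 7, 10 and 13 had 26.6, 19.5, 11.9 and 15.4 CPM, and the formate libraries of codes 2, 8, 11 and 14 had 20.9, 16.7, 10.2 and 13.7 CPM. The groups overlap, since codes 1 to 8 are high and codes 10 to 14 low in both, while formate is the lower library of every pair. The means were 18.3 ± 6.30 and 15.4 ± 4.56 CPM (SD, n = 4 each), and within pairs the log2 change was -0.24 (SE 0.07, edgeR adjusted p = 0.0313).

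Uhrf1 (ENSMUSG00000001228, chr17:56303321-56323486, GRCm38) encodes the protein that binds hemimethylated DNA behind the replication fork and brings in Dnmt1. Its levels were 590, 538, 425 and 499 CPM with PBS and 512, 502, 384 and 417 CPM with formate, in the same order of codes. Formate was lower in every pair, by 0.10 to 0.26 on the log2 scale, and the groups overlap. Means of 513 ± 69.9 and 454 ± 63.2 CPM gave a log2 change of -0.18 within pairs (SE 0.05, edgeR adjusted p = 0.0209). Dnmt1 did not pass: its mean was 511 ± 66.0 CPM with PBS and 464 ± 69.4 with formate, with a log2 change of -0.14 (edgeR adjusted p = 0.0714). Dnmt3a did not pass either, at -0.09 (edgeR adjusted p = 0.233).

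Between the H3K27 methyltransferases, Ezh2 fell and Ezh1 did not pass. Ezh2 (ENSMUSG00000029687, chr6:47530139-47595341, GRCm38) had 332, 348, 286 and 299 CPM in the PBS libraries of codes 1, 7, 10 and 13, and 326, 320, 237 and 260 CPM in the formate libraries of codes 2, 8, 11 and 14. The decrease was small in codes 1 and 2 (log2 change of -0.03) and larger in codes 10 and 11 (-0.27) and 13 and 14 (-0.21), and the groups overlap. The means were 317 ± 28.7 and 286 ± 44.0 CPM (SD, n = 4 each), with a log2 change of -0.16 within pairs (SE 0.05, edgeR adjusted p = 0.0421). Ezh1 stood at 22.5 ± 2.35 CPM with PBS and 22.7 ± 1.84 with formate, a log2 change of 0.01 (SE 0.07, edgeR adjusted p = 0.948).

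Among the 6 H3K9 methyltransferases, Ehmt2 fell, 0 rose, and the median log2 change was -0.06. Ehmt2 (ENSMUSG00000013787, chr17:34898469-34914052, GRCm38) encodes G9a, which mono- and dimethylates H3K9 in euchromatin. It had 109.7, 108, 134 and 116 CPM with PBS (codes 1, 7, 10 and 13) and 103, 99.96, 107 and 102 CPM with formate (codes 2, 8, 11 and 14). Every formate library lies below every PBS library, which held for this gene alone among the 36 and for 1.85% of all genes tested; 0 of the 36 had every formate library above every PBS library, beside 2.44% of all genes. The lowest PBS value and the highest formate value are 108 and 107 CPM, so the gap is narrow. Its mean went from 117 ± 12.1 to 103 ± 2.94 CPM (SD, n = 4 each), a log2 change of -0.18 within pairs (SE 0.05, edgeR adjusted p = 0.0256), most of it in codes 10 and 11 (-0.33) and 13 and 14 (-0.19).

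The other H3K9 enzymes did not pass. Ehmt1, the partner of Ehmt2, changed in no common direction (log2 changes of 0.11, -0.14, -0.25 and 0.06 in the 4 pairs). Suv39h1 was lower in each pair, by 0.07 to 0.13 on the log2 scale (edgeR adjusted p = 0.118 for -0.10), and Setdb1, which works with the corepressor Trim28, had a log2 change of -0.06 (edgeR adjusted p = 0.423). Setdb2 was higher with formate in each pair, at 18.6 ± 2.58 against 20.4 ± 2.60 CPM, with a log2 change of 0.13 (edgeR adjusted p = 0.199).

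All 8 H3K4 methyltransferases had log2 changes above 0 in the paired fit, from 0.06 (Setd1b and Setd7) to 0.36 (Kmt2d), with a median of 0.10, yet 0 of them passed the test. Kmt2d (MLL4, chr15:98831669-98871204, GRCm38), which methylates H3K4 at enhancers, had the smallest p of the group. It had 128, 80.7, 62.9 and 96.9 CPM with PBS (codes 1, 7, 10 and 13) and 153, 123, 92.6 and 98.8 CPM with formate (codes 2, 8, 11 and 14). The groups overlap, and the difference was large in codes 7 and 8 (0.60) and 10 and 11 (0.56) but near 0 in codes 13 and 14 (0.03). Means of 92.2 ± 27.8 and 117 ± 27.5 CPM gave a log2 change of 0.36 (SE 0.11, edgeR adjusted p = 0.0891).

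Kmt2a (MLL1), which acts at promoters of developmental genes, followed the same order of pairs, with log2 changes of 0.28, 0.53 and 0.46 in codes 1 and 2, 7 and 8, and 10 and 11, and -0.08 in codes 13 and 14. It did not pass with all 4 pairs (0.29, SE 0.11, edgeR adjusted p = 0.145). Without codes 13 and 14 edgeR called both Kmt2a (0.42, adjusted p = 0.00629) and Kmt2d (0.47, adjusted p = 0.00898). That pair holds the lowest change of both genes, so leaving it out raises their estimates, and these calls are no further support for a rise. Leaving out any other pair called neither gene. DESeq2 with the pairs as a block also called both higher (0.28 with adjusted p = 0.00869 and 0.34 with adjusted p = 0.000727). Transcript length moved with this pattern: over all genes with a mean of at least 100 counts, the 528 with transcripts of 8 kb or longer had median log2 changes of -0.01, 0.12, 0.10 and -0.13 in the 4 pairs, while the 2599 under 2 kb had 0.05, -0.02, -0.07 and 0.07. The 8 H3K4 enzymes had medians of 0.02, 0.24, 0.28 and -0.09, and the modelled Kmt2d transcript is 19.8 kb long. The part of transcript length in these values was not tested. Kmt2e, which shares the family's name but is not thought to be an active methyltransferase, went from -0.19 in codes 13 and 14 to 0.44 in codes 7 and 8.

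Of the 5 H3K36 enzymes, Nsd2 fell, 0 rose, and the median log2 change was 0.02. Nsd2 (ENSMUSG00000057406, chr5:33820725-33897975, GRCm38) dimethylates H3K36. Its PBS libraries had 259, 231, 199 and 221 CPM and its formate libraries 235, 215, 182 and 193 CPM, in the same order of codes. The groups overlap, and the pairs agree closely, between -0.10 and -0.20 on the log2 scale. The means were 228 ± 25.2 and 206 ± 23.6 CPM (SD, n = 4 each), with a log2 change of -0.14 (SE 0.04, edgeR adjusted p = 0.0400). With GC offsets the change was -0.23 (edgeR adjusted p = 0.00470), a larger value; the Nsd2 transcript has the lowest GC content of the 7 fallen genes at 41.4%. Setd2, which trimethylates H3K36 on transcribed genes, stood at -0.03, Nsd1 at 0.05, Nsd3 at 0.02 and Ash1l at 0.15, and none passed (edgeR adjusted p of 0.745, 0.613, 0.796 and 0.139).

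Dot1l (chr10:80755206-80795461, GRCm38), the H3K79 methyltransferase, did not pass. It had 250.3, 181, 128 and 167 CPM with PBS and 233, 187, 157 and 156 CPM with formate, in the same order of codes. Libraries of codes 1 to 8 lie above those of codes 10 to 14 in both groups, and the groups overlap. Means of 182 ± 51.2 and 183 ± 35.9 CPM gave a log2 change of 0.03 (SE 0.06, edgeR adjusted p = 0.777).

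The 3 SMYD enzymes, lysine methyltransferases with a split catalytic domain that act on histones and other proteins, had 0 calls and a median log2 change of -0.02. Smyd3 (chr1:178951960-179518041, GRCm38) came closest, with 22.6, 20.1, 16.1 and 16.2 CPM with PBS and 21.8, 16.7, 12.3 and 14.5 CPM with formate. It was lower with formate in each pair, by 0.05 to 0.38 on the log2 scale, and the groups overlap. The mean was 18.8 ± 3.19 CPM with PBS and 16.3 ± 4.08 with formate, a log2 change of -0.21 (SE 0.07, edgeR adjusted p = 0.0667). Smyd2 and Smyd5 stood at 0.01 and -0.02 (edgeR adjusted p of 0.938 and 0.827).

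Of the 7 arginine methyltransferases, 2 fell (Carm1 and Prmt5), 0 rose, and the median log2 change was -0.13; 5 of the 7 were lower with formate in 4 of 4 pairs. Carm1 (ENSMUSG00000032185, chr9:21546894-21592623, GRCm38) is a transcriptional coactivator that asymmetrically dimethylates histone H3. It had 187, 155, 109.7 and 143 CPM with PBS (codes 1, 7, 10 and 13) and 158, 137, 107 and 109 CPM with formate (codes 2, 8, 11 and 14). Codes 10 and 11 hardly differ (-0.03) while codes 13 and 14 differ most (-0.39), and the groups overlap. The means were 148 ± 31.8 and 128 ± 24.3 CPM (SD, n = 4 each), with a log2 change of -0.21 (SE 0.05, edgeR adjusted p = 0.0195).

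Prmt5 (ENSMUSG00000023110, chr14:54507187-54517525, GRCm38) is the main source of symmetric dimethylarginine, on histones and on spliceosomal proteins. It had 272, 274, 187 and 243 CPM with PBS and 248, 256, 158 and 204 CPM with formate, in the same order of codes. Formate was the lower library of each pair, by 0.10 to 0.25 on the log2 scale, and the groups overlap. Its mean went from 244 ± 40.5 to 216 ± 44.9 CPM (SD, n = 4 each), a log2 change of -0.18 (SE 0.05, edgeR adjusted p = 0.0176), the smallest adjusted p of the 36 genes. Prmt1, the most abundant of the family, did not pass (357 ± 62.0 and 339 ± 61.8 CPM, log2 change -0.08, edgeR adjusted p = 0.261). Prmt3, which methylates a ribosomal protein, had -0.12, Prmt2 -0.18 and Prmt6 -0.13, while Prmt7, which makes monomethylarginine, had 0.05; none passed (edgeR adjusted p of 0.0971, 0.206, 0.206 and 0.531).

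**Figure D3:**
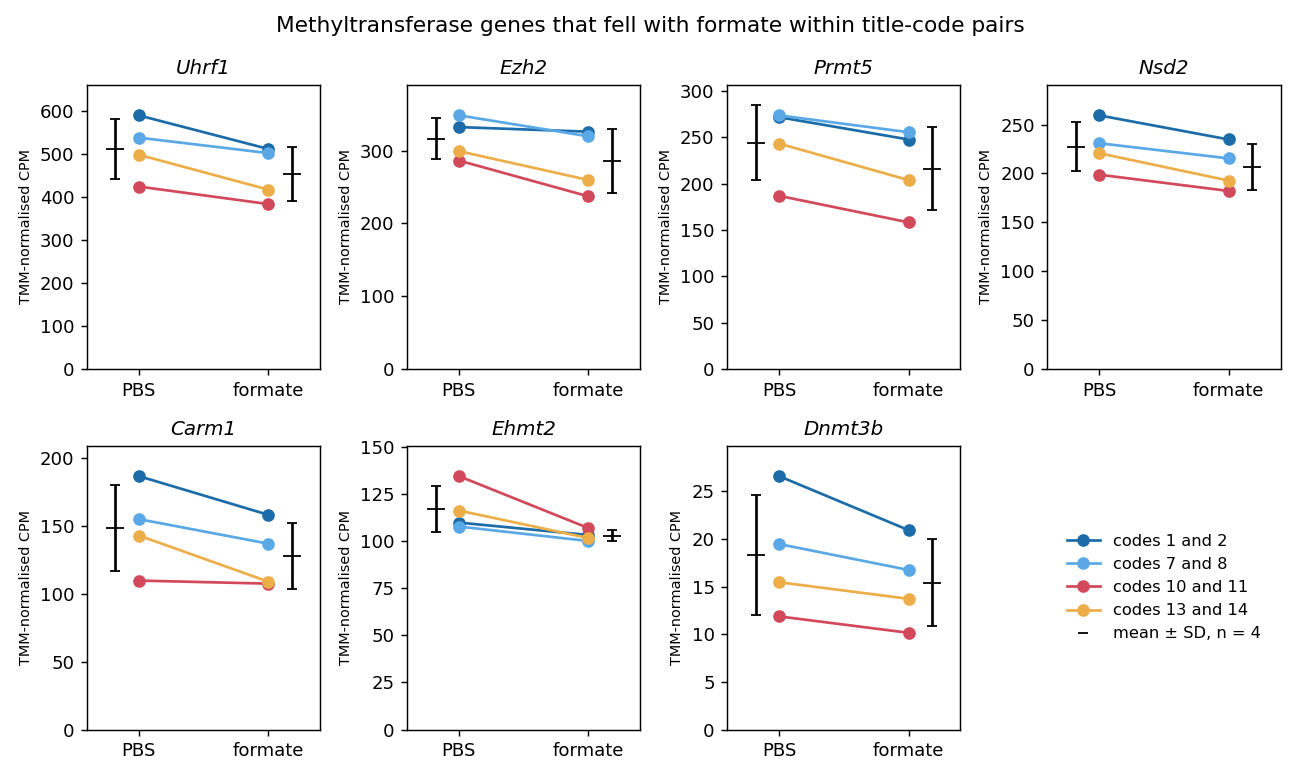
TMM-normalised CPM of the 7 genes that fell within title-code pairs; each line joins the PBS and formate libraries of a pair, and the bars at the sides are mean ± SD of 4 libraries. Every line slopes down, while only for Ehmt2 do all 4 formate libraries lie below all 4 PBS libraries.

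**Figure D4:**
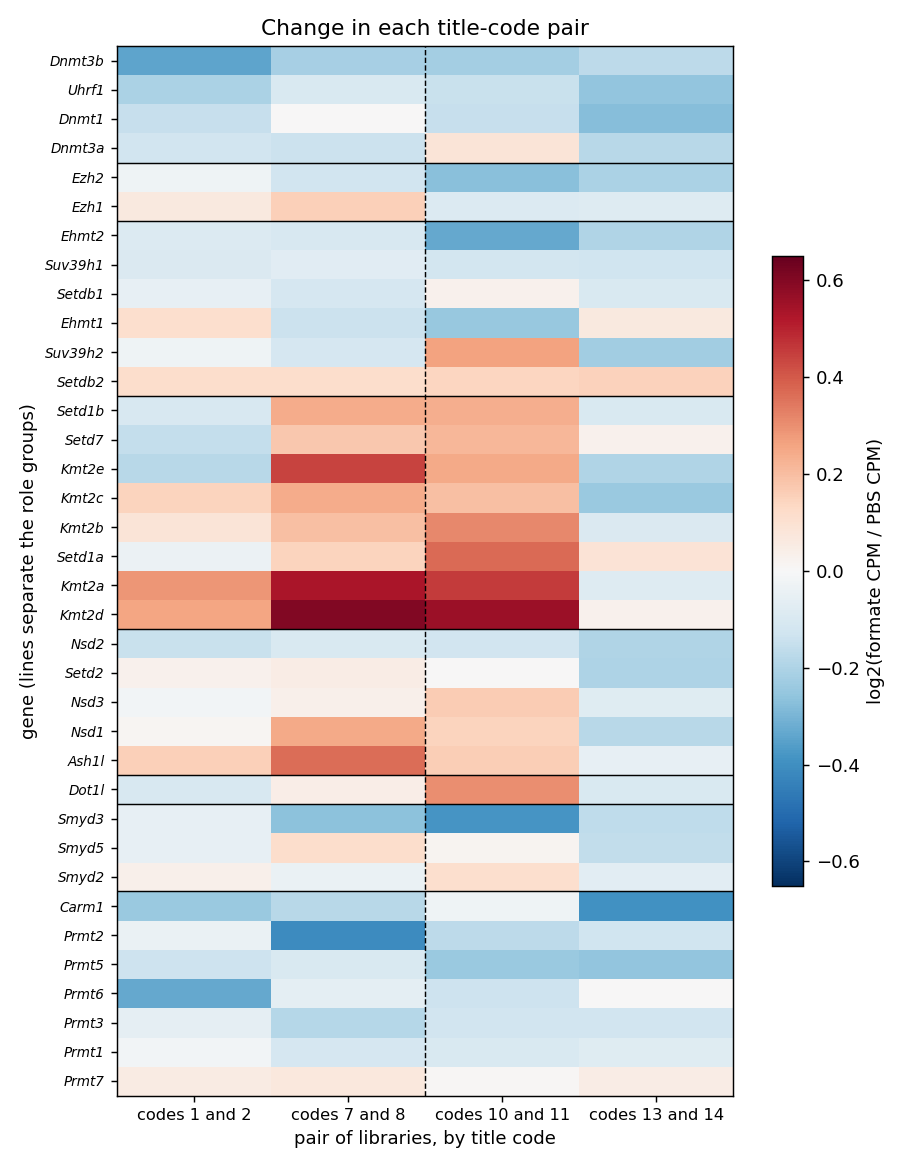
Log2 ratio of formate to PBS CPM in each title-code pair for the 36 genes, in role groups; blue is lower and red higher with formate, and the dashed line separates codes 1 to 8 from codes 10 to 14. Kmt2d and Kmt2a are reddest in codes 7 and 8 (0.60 and 0.53) and near 0 in codes 13 and 14 (0.03 and -0.08), and the arginine enzymes are mostly blue in every pair.

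Over the pairs, 12 of the 36 genes (33.3%) were lower with formate in 4 of 4, against 19.4% of all genes tested; besides the 7 that fell these are Suv39h1, Smyd3, Prmt1, Prmt2 and Prmt3. In the other direction 3 genes (8.33%), Setdb2, Kmt2d and Prmt7, were higher in 4 of 4 pairs, against 16.1% of all genes. Whether the change with formate differed between the code sets was tested by an interaction term. In edgeR, 0 of the 36 genes passed (0.0677% of all genes did), with a smallest adjusted p of 0.945.

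Levels of many of these genes also differed between the code sets. For 18 of the 36 genes every library of codes 1 to 8 lay above every library of codes 10 to 14, a pattern of 17.9% of all genes tested; 0 of the 36 had the opposite order, which 16% of all genes had. The 18 include Dnmt1, Dnmt3a, Dnmt3b, Uhrf1, Ezh2, Suv39h1, Dot1l, Prmt1 and Prmt5. For Suv39h1 the sets barely part, since the lowest of codes 1 to 8 and the highest of codes 10 to 14 both round to 138.7 CPM. The widest gap was that of Dnmt3a, at 142 to 216 CPM in codes 1 to 8 and 85.9 to 113 in codes 10 to 14, a ratio of means of 1.83. Smyd5 (1.65), Dnmt3b (1.63) and Setd1b (1.54) followed, and Kmt2e had the lowest ratio at 0.816. The labels do not say what the codes stand for.

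Promoter sequence was read for the genes with a RefSeq entry (GRCm38.p6), 27 of the 36 and 5 of the 7 that fell, in windows of 300 bases from 250 before to 50 after the start. E2F factors and NF-Y regulate many genes of dividing cells, and their letters were searched on both strands: TTTCCCGC, TTTGGCGC, TTTCGCGC and TTTGCCGC for E2F, and CCAAT for NF-Y, with no overlap between them. E2F letters were found in 4 of the 27 genes (14.8%: Dnmt1, Ezh2, Suv39h1 and Uhrf1), against 2.61% of all 27025 genes with an entry. CCAAT was found in 11 of the 27 (40.7%), against 41.1% of all genes. It was found in 3 of the 5 fallen genes with an entry (Uhrf1, Ezh2 and Prmt5) and in 8 of the 22 uncalled ones. Those 8 are Dnmt1, Prmt1, Prmt2, Prmt3, Setdb1, Setdb2, Smyd5 and Suv39h1. Dnmt3b and Ehmt2, which fell, had neither E2F letters nor CCAAT, while Dnmt1 and Suv39h1, which did not pass, had both. A gene with several RefSeq starts was counted if any of its windows had the letters. For Suv39h1 the E2F letters and CCAAT lie in the windows of different starts. CACGTG, the E-box, was found in 4 of 27 (14.8% against 8.09%), among them the fallen gene Ehmt2. TTTGAA, the cell cycle element, was found in 3 of 27 (11.1% against 20.2%), TGACGTCA in 1 (3.70% against 2.03%) and TATAAA in 1 (3.70% against 15.7%). A match is a description of the letters and not a binding site.

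The stretches below lie before the starts of the 3 fallen genes with CCAAT, and before that of Ezh1, which did not pass and has neither motif, as a contrast to Ezh2. Uncalled genes that have the letters, such as Dnmt1 and Suv39h1, and fallen genes that lack them are not shown. Each is from RefSeq, 5′ to 3′ on the gene's strand, outside annotated exons, with CCAAT on either strand and E2F letters in capitals. The Uhrf1 stretch (chr17:56304063-56304312, plus strand) precedes the second of its RefSeq starts, the Ezh2 stretch is chr6:47595059-47595183 (minus strand), the Prmt5 stretch chr14:54517526-54517720 (minus strand) and the Ezh1 stretch chr11:101226464-101226713 (minus strand).
Uhrf1: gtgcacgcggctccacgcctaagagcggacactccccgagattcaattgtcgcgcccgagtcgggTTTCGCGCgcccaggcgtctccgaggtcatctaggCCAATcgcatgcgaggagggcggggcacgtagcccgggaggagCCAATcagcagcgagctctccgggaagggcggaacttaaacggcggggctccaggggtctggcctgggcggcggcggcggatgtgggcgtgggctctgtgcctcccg
Ezh2: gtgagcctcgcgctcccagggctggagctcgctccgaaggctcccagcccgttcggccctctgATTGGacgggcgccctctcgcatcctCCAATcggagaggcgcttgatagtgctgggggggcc
Prmt5: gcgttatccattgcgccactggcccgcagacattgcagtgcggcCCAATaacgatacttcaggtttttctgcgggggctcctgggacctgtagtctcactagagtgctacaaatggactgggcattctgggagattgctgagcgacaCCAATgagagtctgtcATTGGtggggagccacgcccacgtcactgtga
Ezh1: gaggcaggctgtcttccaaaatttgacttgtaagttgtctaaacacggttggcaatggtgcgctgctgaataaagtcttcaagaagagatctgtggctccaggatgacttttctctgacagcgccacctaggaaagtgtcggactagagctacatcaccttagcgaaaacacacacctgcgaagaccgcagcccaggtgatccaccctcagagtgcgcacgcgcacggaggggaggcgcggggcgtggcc
Uhrf1 has an E2F match that begins 185 bases before the start, followed by 2 CCAAT matches, Ezh2 shows 2 and Prmt5 3 CCAAT matches. The Ezh2 E2F match begins at base 4 after the start, outside the stretch shown. The whole windows hold 3 CCAAT matches for Ezh2 and 4 for Prmt5, so not all are in the stretches. The Uhrf1 and Ezh2 stretches lie within the gene coordinates given above.

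Genes that supply SAM and clear its product were read beside the enzymes, and the median log2 change of the 12 listed was 0.03. Mat2a, which makes SAM, and Ahcy, which hydrolyses S-adenosylhomocysteine, did not pass (0.16 and -0.15, edgeR adjusted p of 0.0630 and 0.0613).

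Partner subunits of the same complexes mostly did not pass, which also holds for all genes tested (7.52% fell and 5.35% rose). Of the 10 Polycomb repressive complex 2 partners tested (11 listed, with Ezhip at 0 in all libraries), 0 rose and 0 fell, with a median log2 change of -0.07; Eed and Suz12, the core subunits beside Ezh2, stood at -0.10 and -0.08. Of the 13 partners of the H3K4 complexes, 1 fell and 0 rose, with a median of -0.06: Men1 (menin), which works with Kmt2a, went from 49.8 ± 3.52 to 44.3 ± 3.51 CPM (log2 change -0.17, SE 0.05, edgeR adjusted p = 0.0470), kept in 1 of 4 leave-one-pair-out fits. Of 11 H3K9 readers and partners, Trim28 fell and 0 rose, with a median of -0.03. Trim28 had 579.9, 574, 406 and 474 CPM with PBS and 509, 475, 336 and 386 CPM with formate, lower in every pair. Its means of 508 ± 83.7 and 427 ± 79.4 CPM gave a log2 change of -0.26 (SE 0.04, edgeR adjusted p = 0.00379), and this call was kept without each pair in turn (adjusted p of 0.00996 to 0.0372). The 7 arginine methylation partners had 0 calls and a median of -0.08, with Wdr77, the obligate partner of Prmt5, at -0.09 (edgeR adjusted p = 0.254). The 19 other methyltransferases listed had 0 calls and a median of -0.0015. These counts depend on the fit. With offsets for GC content, 2 of the 10 Polycomb partners and 3 of the 11 H3K9 readers and partners fell. In that fit 1 of the 13 partners of the H3K4 complexes and 1 of the 7 arginine methylation partners fell, beside 7.28% of all genes tested.

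Genes that remove or read the marks were read in the same fit, in which 7.52% of all genes tested fell and 5.35% rose. Of 10 genes of DNA demethylation and methyl-CpG reading, Mbd3, a subunit of the NuRD corepressor, fell from 149 ± 19.7 to 128 ± 16.5 CPM (log2 change -0.22, SE 0.04, edgeR adjusted p = 0.00717) and 0 rose. The Mbd3 call was kept in 2 of 4 leave-one-pair-out fits (adjusted p of 0.0133 to 0.0586). Of 23 histone demethylase genes, 2 fell and 0 rose, with a median of -0.06: Kdm1a (LSD1), which acts on H3K4, went from 117 ± 6.43 to 105 ± 10.5 CPM (-0.16, SE 0.05, edgeR adjusted p = 0.0340), and Riox1 from 45.5 ± 12.5 to 39.8 ± 9.19 CPM (-0.18, SE 0.06, edgeR adjusted p = 0.0496). Both were lost without any 1 pair (adjusted p of 0.0738 to 0.134 and 0.0517 to 0.256). With offsets for GC content, 0 of the 23 histone demethylase genes passed.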

How the data were processed

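The authors deposited estimated counts (expected counts), made per gene from transcript estimates, unscaled, with 1 value per gene and library. The submitters' processing notes name Trimmomatic, MultiQC and kallisto, with GRCm38 and mm10 as builds. Which transcriptome release and which strand setting were used is not given in the sources used here, so overlapping and antisense genes are uncertain. Values were rounded before testing, since 56.7% of those above 0 had a fractional part. The table has 35072 genes, 8884 without a symbol (1.22% to 1.65% of counts per library), which were kept; 34581 identifiers are in GENCODE M21, which gave coordinates, transcript length and GC content (the longest protein-coding transcript).

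The tests used edgeR 4.0.16 under R 4.3.3 (TMM, filterByExpr, robust quasi-likelihood, two-sided, Benjamini-Hochberg adjusted p under 0.05) over 13299 genes, without a block and with title-code pairs as a replicate block. DESeq2 1.42.0, other scalings, filters, GC offsets, a 1.2-fold minimum and left-out libraries or pairs were alternatives. CPM used TMM factors, and SD is over the 4 libraries of a group. With 29361986 to 41393093 counts per library, 3 counts equal 0.0728 to 0.101 CPM, and all 36 genes lay well above that. Counting error is still not negligible beside changes of this size for genes of low count. In their lowest libraries Prmt2 had 199 counts, Dnmt3b 306 and Smyd3 371. Groups came from the treatment label, and replicate numbers in accession order only name samples. Libraries of a group all differed beyond sampling noise (smallest chi-square per degree of freedom 22). The pairing comes from the title codes: deviations from the group means correlated at 0.652 (codes 1 and 2), 0.366 (7 and 8), 0.661 (10 and 11) and 0.364 (13 and 14), and between non-neighbours of the same code set at 0.267 to 0.379. The values for codes 7 and 8 and for codes 13 and 14 lie within that range. By this measure those pairs are not set apart from other libraries of their code set. The scripts were checked on simulated counts. Promoters were read with pandas 2.3.3 in Python 3.11.15. The 36 genes, the other lists and the paired fit were chosen with earlier results of these data known. Values in every library are given for genes called with the block and for the gene of smallest p in role groups without a call; of other lists, up to 4 called genes by smallest p are named. Suv39h1, Setdb2 and other uncalled genes are given in brief. The result of 1 gene of the SAM supply list is not reported here.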

Additional observations from a re-analysis of the deposited data

Results flagged for a closer look

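In 72 groups of 4 libraries (36 genes, PBS and formate), 3 had 1 library far from the other 3 by Dixon's criterion, which chance gives in about 1 in 20 groups. PBS library 1 (code 10) had 16.9 CPM of Suv39h2, with the next lowest at 20.5. PBS library 4 (code 7) had 59.8 CPM of Kmt2e, with the next lowest at 91.2. Formate library 1 (code 11) had 109.9 CPM of Kmt2e, with the next highest at 84.2.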

How the results depend on the processing

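For all genes, the unpaired count of 1 call became 1711 with the replicate block and 12 with DESeq2, and 0 to 1 on leaving out a library; the unpaired count of 0 methyltransferase genes became 7 with the block. In the paired fit the count of 1711 became 1 without the block, 1121 with DESeq2 without independent filtering (an alternative chosen after seeing the data), 6 against a 1.2-fold minimum, and 337 to 1371 on leaving out a pair. The 7 calls became 0 without the block, 4 with upper quartile scaling (Uhrf1, Ehmt2, Carm1, Prmt5), 1 with library size only (Prmt5), 4 with GC offsets (Uhrf1, Ezh2, Nsd2, Prmt5), 11 with no filter (9 lower, 2 higher) and 0 against a 1.2-fold minimum. Without codes 1 and 2 there were 0 calls, without codes 7 and 8 1 (Prmt5), without codes 10 and 11 4 (Uhrf1, Carm1, Prmt5 and, at -0.15 with edgeR adjusted p = 0.0496, Dnmt3a), and without codes 13 and 14 2, both higher (Kmt2a, Kmt2d); the range is 0 to 4. DESeq2 with the block called 9 (7 lower, 2 higher), 6 of them among the 7, with Dnmt3b at adjusted p = 0.0794. Scaling moved the split of all calls: 711 higher and 1000 lower with TMM, 832 and 736 with upper quartile, 1048 and 539 with library size, 612 and 1126 with RLE, 395 and 1131 with DESeq2, and 421 and 968 with GC offsets. The 9 interaction calls became 0 without the pair term. The cause of these shifts was not tested.

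Of 468 values of single genes under alternatives, 380 kept direction and side of the threshold, 52 lost a call, 13 gained one and 23 changed sign; 0 of the 91 values of the 7 fallen genes changed sign. The log2 changes that turned were all near 0: Ezh1 (-0.0057 with DESeq2, with or without independent filtering, -0.00070 with no filter), Suv39h2 (0.0066) and Setd2 (0.0051) with library size, Smyd2 (-0.0075 with DESeq2, -0.00033 with RLE, -0.0021 with no filter) and Smyd5 (0.015 with library size, 0.0044 with GC offsets). On leaving out a pair the ranges were Dot1l -0.055 to 0.089, Ehmt1 -0.098 to 0.011, Ezh1 -0.034 to 0.042, Kmt2e -0.040 to 0.17, Nsd1 -0.0067 to 0.13, Nsd3 -0.024 to 0.060, Setd2 -0.053 to 0.028, Smyd2 -0.025 to 0.034, Smyd5 -0.064 to 0.026 and Suv39h2 -0.12 to 0.040.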

Other observations

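RNA methyltransferase genes, which modify messenger, ribosomal and transfer RNA with the same methyl donor, were read as a further list. With the title-code pairs, 5 of the 19 genes tested fell and 1 rose, beside 7.52% and 5.35% of all genes tested. The median log2 change of the list was -0.07. Mettl14, a partner of the N6-methyladenosine writer, had 41.3, 39.7, 33.8 and 33.8 CPM with PBS (codes 1, 7, 10 and 13) and 33, 31.8, 28.4 and 28.1 CPM with formate (codes 2, 8, 11 and 14). Its formate libraries all lay below its PBS libraries, and the log2 change was -0.29 (SE 0.06, edgeR adjusted p = 0.00554). Fbl, which methylates ribosomal RNA, went from 399 ± 55.0 to 347 ± 60.0 CPM (log2 change -0.21, edgeR adjusted p = 0.00981), and Cmtr1, which methylates the messenger RNA cap, from 133 ± 11.6 to 116 ± 15.4 CPM (-0.20, edgeR adjusted p = 0.0123). Mettl5, which methylates 18S ribosomal RNA, rose from 20.9 ± 2.32 to 24.4 ± 1.402 CPM, with all 4 formate libraries above all 4 PBS libraries (0.23, edgeR adjusted p = 0.0305). With 1 pair left out in turn, the call of Mettl14 was kept in 3 of 4 fits, those of Fbl and Cmtr1 in 2 and that of Mettl5 in 1. Rbm15b and Zc3h13 also fell. None of these passed the unpaired edgeR test (adjusted p = 0.998 for each of the 4 genes named with values).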
